A study of Mus musculus with 15 samples.

Results

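Single mouse oocytes of 1 stage fell into 2 sets that were compared here, all of them at the germinal vesicle (GV) stage and told apart by the column header of their count files. In 6 files, those of GV1 to GV6, the header of the count column begins with Y, and in 3 files, those of GV7 to GV9, it begins with E. They are called Y oocytes and E oocytes here, and the 9 together are all the GV oocytes among the 15 oocytes of the series, which also holds MII eggs. No source used here explains the letters, and the labels describe all 9 oocytes alike. Each came from a female mouse of about 6 to 8 weeks that had received pregnant mare serum gonadotropin (7 IU), a hormone that drives follicle growth, and was collected 44 h later. No strain, genotype or individual mouse is named, and the removal of follicle cells from GV oocytes is not described. Each oocyte was sequenced with MATQ-seq, a method that amplifies total RNA of a single cell, with cDNA made in droplets, 28 PCR cycles and shearing to 300 bp.

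The GV oocyte is the fully grown oocyte, arrested in the first meiotic prophase, with an intact nucleus (the germinal vesicle). Its transcription has largely stopped or is stopping, and the mRNAs it has stored drive meiotic maturation, fertilization and the first steps of the embryo. It grows within a follicle, coupled to granulosa and cumulus cells by gap junctions through its own egg coat, the zona pellucida.

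Because no mouse is named, the oocytes are cells and each file set counts as 1 sample, so no p-value was made and every difference below is given as a size beside the spread between oocytes. Levels are CPM, an oocyte's counts scaled to a common total. For the Y oocytes the lowest, median and highest of the 6 are given, and for the E oocytes the values of GV7, GV8 and GV9 in that order. The ratio is the log2 of E over Y of the counts summed over each set, relative to the median measured gene, which stood at −0.07 itself. A gene was measured when the higher set had at least 5 CPM. A gene was called separated when all 3 E oocytes lay on 1 side of all 6 Y oocytes, after each oocyte was set relative to its own median measured gene. A separated gene can therefore still overlap between the sets in CPM. Spread is the SDs of both sets combined. For a list it is taken over the median level of its genes in each oocyte. That is another summary than the median of their ratios, and the summaries can differ in size and direction. Folds are ratios of summed CPM, and their 95% intervals cover counting error only, as do all limits. The sources used here do not state whether molecular identifiers were used, and without them PCR reads are not independent molecules.

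Total counts were 4264183 to 7103063 per Y oocyte (median 5061881) and 4242145, 3762895 and 3687610 for the E oocytes. A single feature with no symbol, ENSMUSG00000119584, had 0 counts in all 6 Y oocytes, which allows a share of at most 4.22e-05% to 7.04e-05% of an oocyte's counts. It took 7.60%, 3.43% and 11.2% of the counts of the E oocytes and was left out before scaling. After thinning to 3275485 counts each, 14422 to 18103 genes were detected per Y oocyte and 16080 to 17058 per E oocyte. All 15 of 15 oocyte markers, among them Zp3, Gdf9, Figla and Dppa3, were measured and none was at 0 in either set. Across genes, the Spearman correlation of thinned levels was 0.892 to 0.926 in the 3 pairs of E oocytes, 0.671 to 0.924 in the 15 pairs of Y oocytes and 0.664 to 0.847 in the 18 pairs across sets. By the median pair, the Y oocytes were the more varied set (0.809, against 0.920 in E). That did not hold for all of them, as the pairs among GV3, GV5 and GV6 stood at 0.897 to 0.924. Each of the 9 oocytes was closest to an oocyte of its own set.

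Of 10856 measured genes, 61.7% lay within 2-fold of the median gene between the file sets. E exceeded Y by 4-fold or more in 613 genes (5.65%), and Y exceeded E by as much in 926 (8.53%). That order turned when the median CPM of each set replaced the summed counts (753 higher and 704 lower) and without GV1, GV2 and GV4 (778 and 669). Separated and at least 4-fold apart were 459 genes higher in E (4.23%) and 277 lower (2.55%), so that 62.4% of the separated genes were higher in E. That split depends on the scaling. It was 49.2% with the unnamed feature kept in the totals, 51.8% with TMM factors and 52.2% with median-of-ratios factors, settings under which the median gene stood at −0.20, −0.18 and −0.16. Without GV7, 707 and 465 genes were separated.

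**Figure D1:**
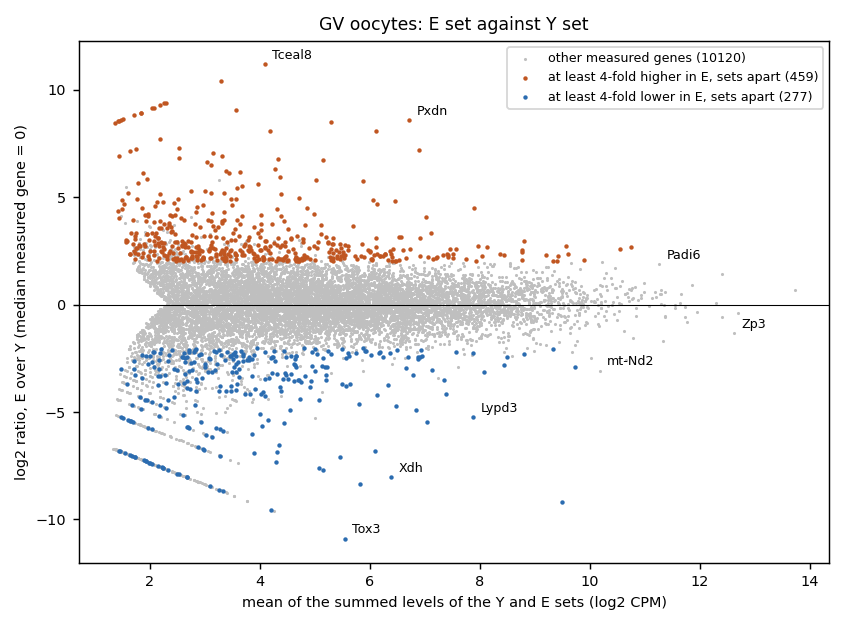
Each point is a measured gene, with its mean level in the file sets on the x axis (log scale, CPM) and its log2 ratio E over Y relative to the median gene on the y axis. The 459 separated genes at least 4-fold higher in E are orange, the 277 lower ones blue and the other 10120 grey, and both colours run from low to high levels.

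Genes at 0 in 1 set were more numerous in E, which has fewer oocytes and counts (10829052 summed, against 32210415 in Y), so the numbers are not like for like. Of the measured genes, 16 had no count in any Y oocyte and 179 had none in any E oocyte. Of the 16, 15 were separated and at least 4-fold apart, and of the 179, 27 were. For the 179, a median of 99.0% of the Y counts came from GV1 and GV2, against 28.3% over all measured genes. Bcl11a, a zinc finger repressor of transcription known from blood and brain, is an example, with 116 CPM in GV1, 138 CPM in GV2 and a median of 8.96 CPM over the 6 Y oocytes. Without GV1 and GV2 the number of genes at least 4-fold lower in E was 653 and that of higher ones 652. Genes at 0 in 1 set and present in every oocyte of the other were thus few.

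The clearest pair in opposite directions was Tceal8 and Tox3. Tceal8, a member of a family of small proteins related to transcription elongation factor A, had 0 counts in all 6 Y oocytes and 16.6, 47.3 and 40.0 CPM in the E oocytes. It was at least 365-fold higher in E, against a floor of 3 counts over the Y set (0.0931 CPM). Tox3, an HMG-box nuclear protein, had 68.3, 98.1 and 113 CPM (lowest, median and highest) in the Y oocytes and 0 in all 3 E oocytes. It was at least 336-fold higher in Y, against a floor of 3 counts over the E set (0.277 CPM). Both were chosen among separated genes, so that neither overlaps between the sets follows from the choice. Their promoters are shown because they are the extremes of the comparison and differ in base composition, with every CG dinucleotide in capitals. Both come from RefSeq on GRCm38.p6, an older build than the authors' GRCm39, and run over the 250 bases before the annotated start, 5′ to 3′ on the strand of the gene.
Tox3: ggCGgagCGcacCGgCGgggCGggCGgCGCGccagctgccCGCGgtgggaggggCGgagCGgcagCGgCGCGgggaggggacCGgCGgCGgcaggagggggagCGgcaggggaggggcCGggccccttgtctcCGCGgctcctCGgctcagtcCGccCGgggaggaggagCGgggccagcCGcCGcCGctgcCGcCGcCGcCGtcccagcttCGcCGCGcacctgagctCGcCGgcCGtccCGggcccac
Tceal8: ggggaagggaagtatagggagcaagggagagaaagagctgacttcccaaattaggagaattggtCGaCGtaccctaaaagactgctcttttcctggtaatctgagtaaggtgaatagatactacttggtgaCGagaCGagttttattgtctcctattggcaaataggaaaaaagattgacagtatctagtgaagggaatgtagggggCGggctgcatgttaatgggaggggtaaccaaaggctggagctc
The Tox3 promoter lies at chr8:90348253-90348502 on the minus strand and holds 40 CG dinucleotides at 84.4% GC. Of the 32851 promoters of the RefSeq table, 1.31% hold as many. The Tceal8 promoter lies at chrX:136172252-136172501 on the minus strand and holds 5 CG dinucleotides at 46% GC, close to the table's median of 6, and 55.6% of promoters hold as many. These letters are a description of the windows. No measure of methylation or of binding there was analysed here.

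The other 11 highest protein-coding genes were all close to 0 in most Y oocytes. Pxdn, peroxidasin, an enzyme that crosslinks collagen IV, had 0, 0.206 and 2.29 CPM in Y and 265, 198 and 157 CPM in E, a ratio of 8.59 or 376-fold (237 to 635). Btn1a1, butyrophilin, a membrane protein of the milk fat globule, had 0, 0.179 and 1.83 CPM in Y and 82.9, 179 and 157 CPM in E (ratio 8.06). Both were chosen as separated genes with high ratios, so the gap between their sets follows from that choice. A pair of lipid genes followed. Pnpla3, a protein of lipid droplets, had 0, 0.0704 and 1.03 CPM in Y and 61.2, 95.8 and 80.3 CPM in E (ratio 8.47). Gpat3, which starts triglyceride synthesis from glycerol-3-phosphate, had 0, 0.286 and 0.845 CPM in Y and 23.7, 50.6 and 47.0 CPM in E (ratio 6.76).

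Enzymes that modify tubulin tails were also among the 12. Agbl2, a carboxypeptidase that trims tubulin, had 0, 0.497 and 10.1 CPM in Y and 229, 179.7 and 301 CPM in E, a ratio of 7.19. Ttll6, a ligase that adds glutamate chains to tubulin, had 0, 0 and 1.64 CPM in Y and 13.3, 24.2 and 25.0 CPM in E (ratio 6.20). The tubulins themselves lay closer to the median gene. The others were Zfp990, a zinc finger gene (ratio 8.09), Sfxn4, a mitochondrial sideroflexin (6.29), Grb7, a receptor adaptor (6.18), H2-Aa, an MHC class II chain (6.12), and Fam171b (5.94). H2-Aa had 0, 0.165 and 1.18 CPM in Y and 18.6, 17.9 and 28.7 CPM in E. Since the Y sums hold few counts, 1 oocyte can set these ratios by more than 1.5-fold. The ratio was 9.61 for Pxdn and 7.25 for Grb7 without GV1, 11.03 for Zfp990, 9.21 for Agbl2 and 7.90 for Ttll6 without GV2. It was 9.73 for Btn1a1 and 7.41 for Gpat3 without GV3, 7.43 for H2-Aa without GV5, and 9.84 for Pnpla3, 7.95 for Sfxn4 and 7.31 for Fam171b without GV6. In each case the oocyte left out held more Y counts than any other, so the larger ratio follows from that choice. Leaving out an E oocyte could lower a ratio, to 7.75 for Zfp990 without GV8 and 8.27 for Pxdn without GV7.

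Among the 12 lowest, several genes were high in all 6 Y oocytes. Lypd3, a membrane-anchored protein of the Ly6 family, had 348, 429.6 and 611 CPM in Y and 9.18, 11.6 and 13.7 CPM in E. Its ratio was −5.25 with a spread of 0.25, or 40.3-fold (33.8 to 48.6) higher in Y, and it was even within both sets. Xdh, xanthine dehydrogenase, the enzyme of purine breakdown that makes urate, had 96.9, 156 and 314 CPM in Y and 0, 1.65 and 0 CPM in E, 299.9-fold (138 to 818) higher in Y. All counts of Xdh in E came from GV8, and without it the gene was at 0 in E. Sh3rf2, a ubiquitin ligase with SH3 domains, had 43.4, 120.1 and 173 CPM in Y and 0.510, 0 and 0.305 CPM in E, which are 3 counts, so its 405-fold carries an interval of 138 to 1964.

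Rp9, a nuclear protein named for retinitis pigmentosa, had 55.1, 90.2 and 354 CPM in Y and 1.02, 0.550 and 1.83 CPM in E (ratio −6.79). Cast, calpastatin, the inhibitor of the calpain proteases, had 18.6, 38.8 and 67.6 CPM in Y and 3 counts in E, 142-fold (48.4 to 689) higher in Y. All 3 were in GV7, without which Cast was at 0 in E. Scd3, a stearoyl-CoA desaturase, had 12.2, 15.9 and 78.7 CPM in Y and 1.02, 0.550 and 0 CPM in E, a ratio of −5.67 that was −6.48 without GV7. Like the others of the 12, these genes were chosen as separated, so their sets lie apart by that choice.

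Other genes of the 12 varied widely among the Y oocytes. Myo7a, an unconventional myosin of hair cells, had 5.88, 21.7 and 93.2 CPM in Y and 0 in E, at least 132-fold higher in Y. GV3 held 662 of its 1182 Y counts, and without it the fitted ratio of Myo7a, which depends on the added count, was −8.66 in place of −9.56. Maf, a leucine zipper transcription factor, had 0.758, 14.7 and 62.6 CPM in Y and 0 in E, at least 72.3-fold higher in Y. Extl1, a glycosyltransferase of the exostosin family, had 5.39, 26.2 and 80.3 CPM in Y and 2 counts in E, both in GV9, 210.1-fold (58.0 to 1737) higher in Y. Also among them was mt-Nd3, a mitochondrially encoded subunit of complex I, with 10.6, 23.1 and 64.7 CPM in Y and 0.255, 0.275 and 0.611 CPM in E (ratio −6.03).

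**Figure D2:**
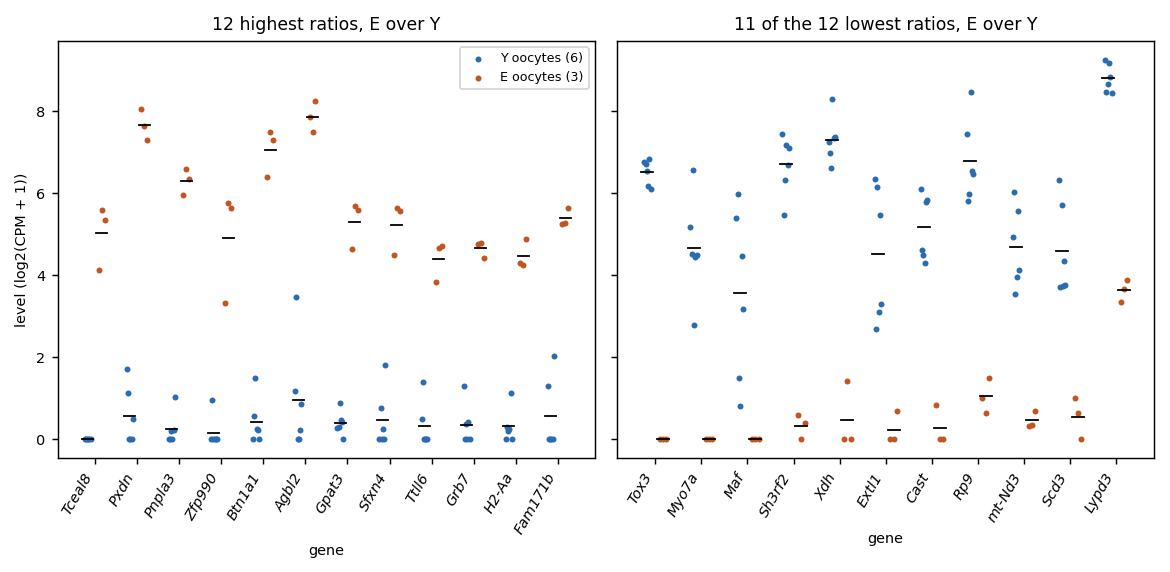
Points are the levels of the 12 highest (left) and 11 of the 12 lowest (right) protein-coding genes in each oocyte, as log2(CPM + 1), with bars at the mean of each set. The genes were chosen among separated ones, so the Y and E points of a gene lie apart by that choice. Lypd3 lies far from 0 in both sets, at 348 to 611 CPM in Y and 9.18 to 13.7 CPM in E.

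Across the 45 pathway lists the file sets were mostly close. Of 41 lists with at least 5 measured members, 38 had a median ratio within 2-fold and 27 within 0.5 on the log2 scale. Over all measured genes, 18.1% were 2-fold or more higher in E (9.48% also separated) and 20.2% were lower (5.2% also separated). The counts of each list are read beside these shares. Medians furthest from the median gene were those of mitochondrially encoded mRNAs, replication-dependent histones, the Obox genes and, on the higher side, antioxidant enzymes. List medians beyond 0.5 in size kept their direction under all 23 alternatives, while several nearer 0 changed sign under some. Where a median moved over 1.5-fold without 1 oocyte, that value is given.

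**Figure D3:**
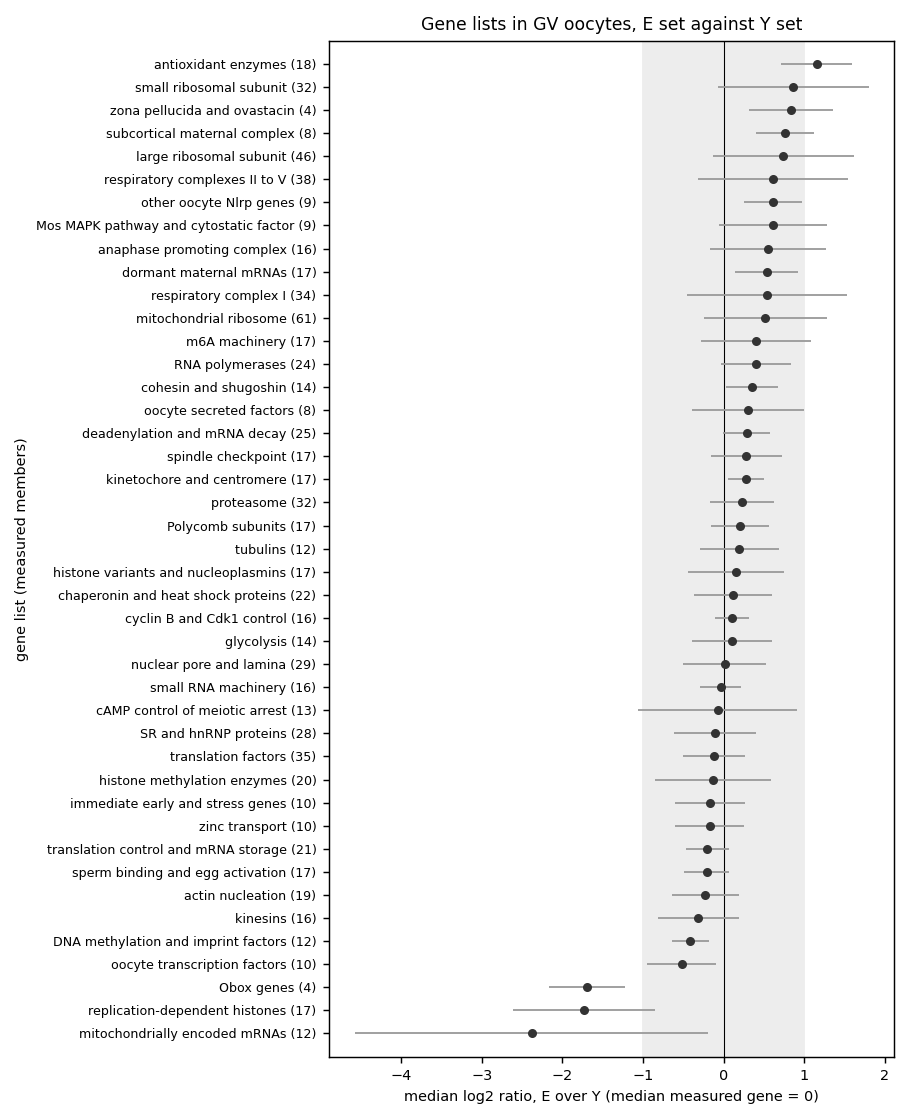
Each row is a list with at least 4 measured members, and its point is the median log2 ratio E over Y relative to the median gene. Its bar is the spread between oocytes of the list's median level, which is a different summary. The grey band marks ratios within 2-fold, which hold most lists, while mitochondrially encoded mRNAs (−2.38) and antioxidant enzymes (1.15) lie outside it.

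Of the genes of the egg coat and of the maternal complex below the membrane, some were higher in E and 1, Zp3, was at least 2-fold lower. The zona pellucida is built from Zp1, Zp2 and Zp3, and ovastacin (Astl) is the protease that cleaves Zp2 after fertilization. The 4 genes had a median ratio of 0.84 with a spread of 0.52, and 2 were at least 2-fold higher. Zp2 had 542, 636 and 1061 CPM in Y and 1169, 2881 and 2382 CPM in E (ratio 1.70). Astl had 82.8, 352 and 742 CPM in Y and 876, 785 and 774 CPM in E (1.16). Both were separated. Zp3, the sperm-binding coat protein, went the other way with 2424, 8227 and 14732 CPM in Y and 2832, 4293 and 3207 CPM in E, a ratio of −1.34 with overlapping oocytes. The ratio of Zp2 to Zp3 therefore differed between the sets more than either gene.

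The subcortical maternal complex, a protein assembly under the egg membrane that early cleavage needs, had a median ratio of 0.76 (spread 0.36) over 8 genes. Its median level per oocyte, as log2 relative to the oocyte's median gene, was 3.72 to 4.68 in Y and 5.31 to 5.54 in E, with no overlap. Padi6, a member of the peptidylarginine deiminase family and of the egg's cytoplasmic lattices, had 331, 1116 and 1555 CPM in Y and 3301, 5648 and 2407 CPM in E (ratio 1.88). Tle6 had 152, 485 and 602 CPM in Y and 1065, 1677 and 1344 CPM in E (1.66). Zbed3, the most abundant of the 8, had 9015, 10037 and 14615 CPM in Y and 18438, 15991 and 14429.6 CPM in E (0.68). Of the 8 genes, 3 were at least 2-fold higher (2 of them separated), none was 2-fold lower, and Khdc3 lay below the median gene at −0.26. The other 9 oocyte genes of the Nlrp family had a median of 0.61, with Nlrp4e furthest at 41.9, 55.3 and 63.1 CPM in Y and 227, 241 and 264 CPM in E (2.22). Nlrp14 stood at 0.02.

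Secreted factors were close. The growth factor Gdf9, which acts on the surrounding granulosa cells, had 1019, 3728 and 4983 CPM in Y and 2356, 3927 and 3311 CPM in E (−0.11), and its partner Bmp15 stood at 0.47. Oosp1, an oocyte secreted protein, had 11.02, 35.9 and 159.6 CPM in Y and 133, 298 and 228 CPM in E, a ratio of 2.20 that was 2.99 without GV4. GV4 is above GV7 in CPM, so Oosp1 counts as separated only relative to each oocyte's median gene.

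Homeobox genes of the Obox family, oocyte and early embryo transcription factors, split by member. Obox2 had 1035, 1332 and 2827 CPM in Y and 129, 229 and 229.9 CPM in E, 7.77-fold (7.44 to 8.13) higher in Y. Obox7 had 86.1, 193 and 337 CPM in Y and 36.7, 29.2 and 33.6 CPM in E (ratio −2.52). Both were separated, while Obox1 stood at 0.49 with 226, 342 and 652 CPM in Y and 259, 657 and 528 CPM in E. The 4 measured genes had a median of −1.69 (spread 0.47), and their level per oocyte did not overlap between the sets. Obox genes are near-identical copies whose reads the counting may have divided, so the values of single members are uncertain. Other transcription factors of the oocyte were nearer the median gene, with a list median of −0.52 and 1 of 10 genes separated. Nobox, which drives oocyte growth, had 356, 1078 and 1922 CPM in Y and 402, 614 and 457 CPM in E (−1.09), and its oocytes overlapped.

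**Figure D4:**
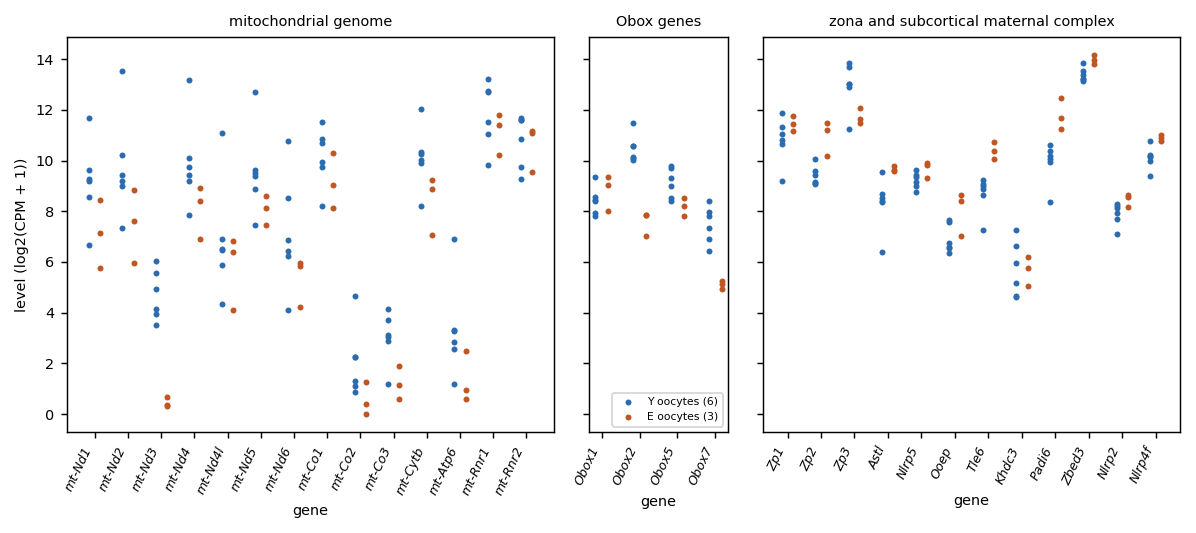
Points are levels per oocyte, as log2(CPM + 1), for mitochondrially encoded genes (left), Obox genes (middle) and zona genes with the subcortical maternal complex (right). Obox2 and Obox7 lie lower in all 3 E oocytes and Zp2 higher, while mitochondrial genes other than mt-Nd3 overlap, and the high Y point of mt-Nd2 is GV2.

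DNA methylation and imprint genes were close, with a median of −0.41 over 12 genes. Dnmt1, the maintenance methyltransferase and the most abundant of them, had 4738, 7490.5 and 9786 CPM in Y and 7510.0, 4010.0 and 4811 CPM in E, with overlap. Zfp57, a zinc finger protein that protects imprints, had 2222, 2592 and 3291 CPM in Y and 3802, 5768 and 4791 CPM in E (ratio 0.90), and no oocyte of 1 set reached the other. Tet2, which oxidizes methylcytosine, was the gene furthest apart, with 1.33, 7.18 and 20.6 CPM in Y and 44.9, 45.1 and 29.9 CPM in E (2.13, or 2.74 without GV3). Polycomb subunits had a median of 0.20 over 17 genes, with 1 gene at least 2-fold higher and 1 lower. The higher was Suz12, a core subunit of the complex that methylates histone H3, with overlapping oocytes (ratio 1.04). The lower was Phf19, a Polycomb-like subunit, with 3.60, 16.5 and 38.4 CPM in Y and 3 counts in E, 71.5-fold (24.4 to 348) higher in Y.

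Replication-dependent histone genes, whose mRNAs end in a stem-loop and are not polyadenylated, gave a median of −1.73 (spread 0.88). Among the 17 measured, 10 were lower in E by 2-fold or more and 4 higher, and 2 and 1 of these were separated. Hist1h2bj had 7.44, 15.3 and 67.3 CPM in Y and 1.28, 1.10 and 1.53 CPM in E (ratio −3.99). Hist1h4c ran against the list, with 2.35, 12.8 and 108 CPM in Y and 111, 179 and 129 CPM in E (2.49, or 3.83 without GV4). The list median was −0.59 without GV1, GV2 and GV4, a choice made after seeing the data. H1foo, the oocyte linker histone, stood at 0.77 with overlapping oocytes, and H3f3b, a replacement histone H3 gene, had 187, 419 and 1024 CPM in Y and 121, 162 and 182 CPM in E (−1.73).

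Cell cycle genes of meiosis showed small list medians, 0.10 for cyclin B and Cdk1 control, 0.61 for the Mos pathway, 0.28 for the spindle checkpoint and 0.55 for the anaphase promoting complex. Plk1, a mitotic kinase, was nearly equal at 872, 1053 and 1134 CPM in Y and 942, 1203 and 1211 CPM in E. A few genes stood apart from their lists, in both directions. Pttg1, securin, which holds separase in check, had 21.3, 47.2 and 134 CPM in Y and 132, 503 and 346 CPM in E (ratio 2.60). Ccnb2, a B-type cyclin, had 2.25, 10.04 and 16.2 CPM in Y and 21.2, 56.7 and 47.6 CPM in E (2.20). Aurkb, the kinase of the chromosomal passenger complex, had 0.704, 11.4 and 17.2 CPM in Y and 49.0, 44.6 and 36.9 CPM in E (2.10). In the other direction Cks1b, a Cdk subunit, was separated with 47.2, 69.0 and 184 CPM in Y and 19.4, 35.2 and 38.2 CPM in E (−1.46), while Cdc23 (−1.27) and Mad1l1 (−1.15) overlapped. Mos itself, the kinase that starts the MAPK pathway, overlapped fully at 31.0, 92.2 and 165 CPM in Y and 55.6, 61.9 and 70.8 CPM in E.

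Tubulins had a median of 0.19 over 12 genes, 3 of them separated and at least 2-fold higher in E. Tuba1a, an alpha tubulin, had 0.619, 5.51 and 26.4 CPM in Y and 31.6, 50.6 and 40.6 CPM in E (2.12), and Tubb4b, a beta tubulin, had 72.7, 286 and 692 CPM in Y and 806, 1483 and 1563 CPM in E (1.92). Genes of actin nucleation had a median of −0.23, with 4 of 19 separated and higher and 2 separated and lower. Their median level per oocyte lay the other way, at a mean of 1.41 in Y and 2.01 in E. Arpc1b, a subunit of the Arp2/3 complex, was the highest, with 13.6, 26.8 and 81.5 CPM in Y and 68.9, 155 and 124 CPM in E (1.64). In the other direction Myo10, an unconventional myosin of filopodia, had 573, 827 and 1147 CPM in Y and 249, 208 and 228 CPM in E (−1.85). It was lower in all 3 E oocytes, and the spread within E was small.

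Genes that control stored mRNA lay in both directions. Cnot2, a subunit of the CCR4-NOT deadenylase, had 32.5, 59.7 and 83.4 CPM in Y and 184, 334 and 289.7 CPM in E (ratio 2.31). Patl2, an RNA-binding protein of the oocyte that represses translation, had 48.8, 166 and 312 CPM in Y and 26.5, 32.7 and 34.8 CPM in E (−2.43). Tdrd9, a helicase of the piRNA pathway, had 7.01, 13.97 and 29.5 CPM in Y and 72.5, 63.3 and 84.9 CPM in E (2.26). Each was separated while its list was near the median gene, at 0.28 for decay factors, −0.20 for translation control and −0.04 for small RNA genes. The small RNA list's level per oocyte did not overlap between the sets, at 0.63 to 1.29 in Y and 1.43 to 1.53 in E. Dicer1, the most abundant of the small RNA genes, had 940.3, 1283 and 1445 CPM in Y and 1146, 1037 and 1071 CPM in E (−0.14).

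Ribosomal protein genes had list medians above the median gene, but each was smaller than its spread. Their list levels per oocyte overlapped between the sets. The large subunit had a median of 0.74 (spread 0.88) with 22 of 46 genes at least 2-fold higher and 5 lower, and the small subunit 0.86 (spread 0.94) with 14 of 32 higher and 7 lower. Separated and 2-fold higher were 10 and 3 of them, and 2 and 1 were separated and lower, beside 9.48% and 5.2% of all measured genes. Rpl41, the smallest ribosomal protein, had 4.65, 9.18 and 74.7 CPM in Y and 54.3, 301 and 160.3 CPM in E (ratio 3.13). Rpl10, near the peptidyl transferase centre, had 7.60, 11.1 and 46.5 CPM in Y and 40.8, 103 and 71.1 CPM in E (2.11). In both, the highest Y value is that of GV4, which is above GV7 in CPM. They count as separated only relative to each oocyte's median gene. Rplp0, a protein of the ribosomal stalk, ran the other way with 144, 227 and 402 CPM in Y and 64.3, 111 and 85.2 CPM in E (−1.47).

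GV4 stood above the other 5 Y oocytes in these lists, and without it the medians were 1.29 and 1.35. Without GV8 they were 0.24 and 0.46. The elongation factor Eef1a1 was higher in E at 180.3, 248 and 520.0 CPM in Y and 391, 1157 and 933 CPM in E (1.51), while translation factors as a list stood at −0.12. Ribosomal proteins have many pseudogene copies, so reads may be shared among them, and 34 measured ribosomal protein pseudogenes had a like median of 0.74.

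Nuclear genes of the mitochondrion had medians of 0.51 for the mitochondrial ribosome (spread 0.76), 0.53 for complex I (0.99) and 0.61 for complexes II to V (0.93), each smaller than its spread. Complex I stood at 1.13 without GV4. Separated and at least 2-fold higher were 6 of 61, 2 of 34 and 2 of 38 genes, near or below the 9.48% of all measured genes, and complex I also had 2 separated lower genes. Mitochondrially encoded mRNAs ran in the opposite direction, with a median of −2.38 and 11 of 12 genes at least 2-fold lower in E, but their spread was 2.19 and 2 were separated. mt-Nd2 had 161, 642 and 11769.7 CPM in Y and 61.2, 456 and 195 CPM in E (ratio −3.08), the highest being GV2. Without GV2 the list median was −1.33, and without GV8 it was −3.00. mt-Nd2 alone stood at −1.34 without GV2. Both mitochondrial rRNAs overlapped fully, with 915, 4855 and 9412 CPM in Y and 1195, 3578 and 2678 CPM in E for mt-Rnr1. Mitochondrial genes together took 0.284% to 4.69% of the counts of a Y oocyte and 0.279%, 0.956% and 0.693% in E.

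Antioxidant enzymes had the highest list median, 1.15 (spread 0.44). Of 18 measured genes, 9 were at least 2-fold higher in E and 1 lower, and 7 of the 9 were separated. They were peroxiredoxins, thioredoxins and their partners. Prdx2 had 11.8, 32.4 and 132 CPM in Y and 112, 284 and 201 CPM in E (ratio 2.24). Txn2, the mitochondrial thioredoxin, had 10.1, 26.1 and 47.2 CPM in Y and 112, 184 and 120.0 CPM in E (2.37), and Txn1, the cytosolic one, had 0, 0.781 and 3.79 CPM in Y and 5.61, 14.04 and 10.7 CPM in E (3.30). Prdx3, the mitochondrial peroxiredoxin, was nearly absent from Y at 0, 0.0846 and 2.06 CPM, against 3.57, 13.8 and 15.0 CPM in E (4.72, or 6.45 without GV6). Sod1, the cytosolic superoxide dismutase, was the lower gene, with 198, 446 and 1787 CPM in Y and 107, 327 and 297 CPM in E (−1.36). The median level of the list per oocyte, to which the spread belongs, overlapped. It was −0.58 to −0.15 in Y (mean −0.41) and −0.59 to 0.19 in E (mean −0.21).

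Of the heat shock genes, 3 of 22 were at least 2-fold higher in E and 3 lower. Hspa8, the constitutive Hsc70 chaperone, had 208, 289.7 and 319 CPM in Y and 811, 1020.4 and 921 CPM in E, a ratio of 1.76 with a spread of 0.25. Hspa1b, an inducible Hsp70 gene, had 7.42, 48.1 and 91.0 CPM in Y and 2.55, 0.550 and 0.916 CPM in E, a ratio of −4.91 that was −5.84 without GV7. Its near-identical neighbour Hspa1a, with which it may share reads, had 0.948, 21.9 and 40.9 CPM in Y and 2.04, 2.20 and 1.83 CPM in E (−3.26), and its lowest Y oocyte was below the E oocytes. Hsp90aa1, the inducible Hsp90 gene, stood at 0.13, and the list had a median of 0.12. Of the enzymes of glycolysis, Gpi1 had 61.0, 81.0 and 143 CPM in Y and 303, 420.5 and 243 CPM in E (1.92). The phosphofructokinase genes went opposite ways, with Pfkp at 0.469, 5.17 and 24.8 CPM in Y and 29.6, 47.3 and 49.1 CPM in E, and Pfkm at 14.2, 32.6 and 66.7 CPM in Y and 9.44, 12.7 and 8.24 CPM in E. Their ratios were 2.38 and −1.72, and both were separated.

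Membrane and signalling genes of the egg gave a list median of −0.21 for sperm binding and activation and −0.08 for cAMP control. Gja4, the connexin of the oocyte side of the gap junctions, had 287, 815 and 1284 CPM in Y and 1337, 1604 and 1528 CPM in E (ratio 0.92). Cd9, the tetraspanin of the egg membrane, had 8.34, 13.2 and 19.4 CPM in Y and 2.81, 3.30 and 6.41 CPM in E (−1.66), and was chosen after its values were seen. A related tetraspanin, Cd81, had 1.03, 4.68 and 23.9 CPM in Y and 3 counts in E, 24.4-fold (8.25 to 119) higher in Y, and its ratio of −4.32 was −3.52 without GV1. Both tetraspanins were lower in all 3 E oocytes.

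**Figure D5:**
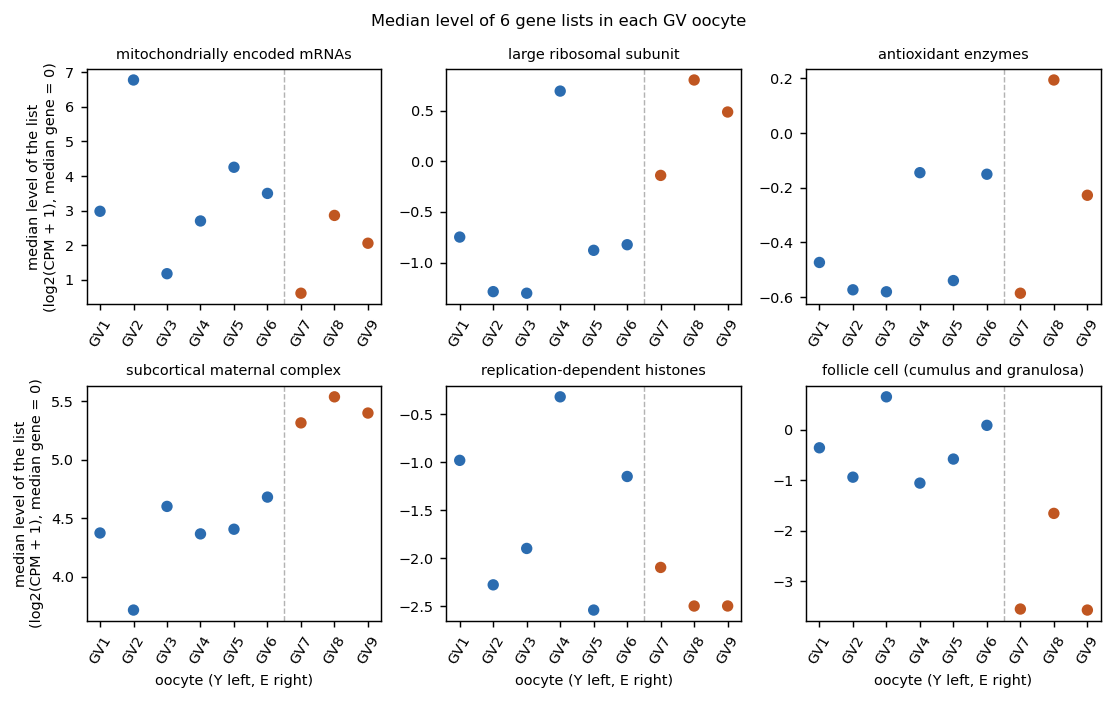
Each panel shows, for 1 list, the median level of its measured genes in each oocyte, as log2 relative to the oocyte's median gene, with Y and E oocytes side by side. The subcortical maternal complex (3.72 to 4.68 in Y, 5.31 to 5.54 in E) and the measured follicle cell markers do not overlap between the sets. Of these 9 follicle cell markers, 6 passed the minimum level through the Y set alone, which partly fixes their direction. The mitochondrial mRNAs, large ribosomal subunit, antioxidant enzymes and histones overlap, with GV2 or GV4 apart in several panels.

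Markers of follicle cells, the cells joined to the oocyte, differed between the file sets too. Of 22 cumulus and granulosa markers, 20 had counts, 16 with lower CPM in E and 4 with higher. Some rest on few counts, such as Ptx3 with 2 in Y and 0 in E. Low levels leaned the same way in general. Among the measured nuclear protein-coding genes of lowest mean CPM (2.51 to 8.38), 40.8% were at least 2-fold lower in E and 23.2% higher. Only 9 were measured, and 6 of these passed the minimum level through the Y set alone, so that the direction of the measured markers is partly fixed by that minimum. Amh, anti-Müllerian hormone, had 1.41, 10.1 and 23.7 CPM in Y and 0 in all 3 E oocytes, at least 41.5-fold higher in Y, and Cyp19a1, aromatase, had 11.02, 19.8 and 30.9 CPM in Y and 1.53, 7.71 and 2.44 CPM in E (−2.41). Those were the 2 separated markers. Ccnd2, cyclin D2, had 4.92, 52.9 and 154 CPM in Y and 0.255, 9.63 and 1.22 CPM in E, with overlap. Serpine2 had like levels in both sets, at 121, 157 and 205 CPM in Y and 141, 149.7 and 204 CPM in E, and Nr5a2 lay in the other direction, at 48.9, 65.5 and 115 CPM in Y and 132, 90.3 and 131 CPM in E (0.73). Summed over the 22 markers, most of it Serpine2 and Nr5a2 in E, the level was 299 to 645 CPM in Y and 289 to 351 CPM in E, and 2 markers were at 0 in Y and 7 in E. Zeros were more frequent in E among all 10856 measured genes too, 179 against 16 in Y, since E has fewer oocytes and counts.

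Theca and stroma markers summed to 1.69 to 134.8 CPM in Y, high in GV1 and GV2, and 6.05 to 9.44 CPM in E, with 9 of 15 at 0 in E and 2 in Y. For blood and immune markers the sums were 57.1 to 131 CPM in Y and 69.4 to 101 CPM in E, with 7 and 12 of 15 at 0. These numbers at 0 are not like for like between the sets either, as E has fewer oocytes and counts. Oviduct markers summed to 549.9 to 1337 CPM in Y and 812 to 898.5 CPM in E. Of the measured blood and immune markers, Pecam1 of endothelium made up most of the sum and overlapped (ratio −0.17). Cd68 of macrophages was higher in E (1.73), with 0, 1.16 and 5.62 CPM in Y and 5.10, 7.43 and 6.41 CPM in E. It passed the minimum level through the E set alone. GV1 is above GV7 in CPM, so Cd68 counts as separated only relative to each oocyte's median gene. Csf1r, also of macrophages, was not measured and lay in the other direction, with 30 counts in Y and 0 in E. The follicle markers, and in GV1 and GV2 the theca and stroma markers, move with the genes lower in E, and their part in the differences was not tested. The GC content of transcripts moves with the ratio as well. With 9910 genes in 5 equal groups from low to high GC, the median ratios were 0.18, 0.20, 0.06, −0.10 and −0.44, and that part was not tested either. Within the Y oocytes, the difference in level between the groups of highest and lowest GC ran from −0.79 in GV2 to 1.11 in GV3, and in the E oocytes it was 0.26, −0.24 and −0.42.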

How the data were processed

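The deposited values are counts per Ensembl gene ID in 1 file per oocyte, whole numbers of at least 1 per the file headers and values, made by the authors with cutadapt 4.0, STAR 2.7.10a and the build GRCm39, per the submitters' processing notes. The sources used here do not state the counter, its annotation, its use of strand or its treatment of multi-mapped reads, so antisense, overlapping and near-identical genes may share reads. Genes absent from a file were taken as 0. Symbols came from GENCODE M21 (27266 of 27569 IDs). The file set was read from the header letter of each count column.

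ENSMUSG00000119584 was removed, 0.5 was added to summed counts, and a pseudocount of 1 CPM was used for levels per oocyte. Intervals are exact Poisson or binomial. No pair of oocytes within a set agreed within sampling noise (lowest chi-square per degree of freedom 15.6 over 18 pairs). Named genes were protein-coding genes (predicted genes and clone names left out) with at least 20 CPM in the higher set that were separated, the 12 highest and 12 lowest ratios, 5 each way of other biotypes, 6 each way at 0 in 1 set, and for each list the most abundant, highest and lowest member. Of the 12 lowest, 1 gene is not reported here. Other members given with values belong to the 50 lists (1026 entries, 2 unmatched). The oocytes, lists and rules were chosen with earlier results of these data known. The method was tested on simulated data in which all oocytes shared the same composition, save for genes set to differ between the sets. Differences in composition between oocytes of a set were thus not covered. Tools were Python 3.11.15, pandas 2.3.3, NumPy 2.4.6, SciPy 1.17.1, matplotlib 3.10.9 and, for scaling factors only, R 4.3.3 with edgeR 4.0.16 and DESeq2 1.42.0. Alternatives were other scalings, sums and filters, thinning, and leaving out oocytes.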

Additional observations from a re-analysis of the deposited data

Results flagged for a closer look

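In 17 of 76 measures tested, 1 Y oocyte stood far from the other 5 by Dixon's criterion. Its chance rate of about 5% assumes independent, normally distributed values. These measures come from the same oocytes and several are CPM near 0, so the number cannot be set against that rate. GV2 had a mitochondrial share of 4.69% against 0.284% to 1.88% in the others, a relative level of the subcortical maternal complex of 3.72 against 4.37 to 4.68, and one of tubulins of 2.86 against 3.88 to 4.11. GV4 stood apart in the large ribosomal subunit at 0.69 (the others −1.30 to −0.75), the small subunit at 0.33 (−1.30 to −0.88), complex I at 0.29 (−1.99 to −1.41) and RNA polymerases at 0.76 (−0.22 to 0.05). These 7 levels are log2 relative to the oocyte's median gene, save the share.

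Among named genes near 0 in Y, the single high oocyte was GV6 for Pnpla3 (1.03 CPM) and Sfxn4 (2.47 CPM), GV2 for Zfp990 (0.938 CPM), Agbl2 (10.1 CPM) and Ttll6 (1.64 CPM), GV3 for Btn1a1 (1.83 CPM), GV1 for Grb7 (1.46 CPM) and GV5 for H2-Aa (1.18 CPM). Of the genes higher in Y, Myo7a was highest in GV3 (93.2 CPM) and Xdh in GV4 (314 CPM, against 96.9 to 165 CPM in the others). The feature left out of all totals, ENSMUSG00000119584, held 7.39% of the summed counts of the E oocytes and no count in the Y oocytes.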

How the results depend on the processing

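With genes measured from 1 CPM, 1546 genes were at least 4-fold higher in E and 2288 lower, and 780 higher genes were separated. From 20 CPM the numbers were 245 and 270, and 218 and 154 were separated. Leaving out 1 oocyte at a time gave 541 to 834 higher and 780 to 1086 lower genes, of which 456 to 707 and 290 to 465 were separated, the largest numbers without GV7. Fewer oocytes make separation easier to reach. Without GV1, GV2 and GV4, a choice made after seeing the data, 693 and 555 were separated and the median of replication-dependent histones was −0.59. Leaving out 1 oocyte moved the median of the Nlrp genes between 0.20 and 0.81 and that of DNA methylation and imprint genes between −0.41 and −0.13. The cause of these moves was not tested.

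Of 1104 list medians recomputed for 48 lists, 1099 moved by less than the spread between oocytes. Of 3933 values of 171 named genes, 3829 did. Reversed were the zinc transporter Slc39a14, at 0.86 without GV1 and GV2 and 0.38 without GV1, GV2 and GV4, and the stroma marker Nr2f2, at 0.69 and 1.79. No paired analysis was possible because no label links a Y oocyte to an E oocyte, and the results come from no test. A set of 3 oocytes from mice that are not named limits every comparison, and genes near 1 CPM rest on a few counts.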

Other observations

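Processed pseudogenes, copies of mRNAs inserted back into the genome, lay above the median gene as a class, transcribed ones included. Of 378 measured ones the median ratio was 0.90, with 178 at least 2-fold higher in E and 53 lower, and 114 and 16 of these separated. They took 0.587% to 1.02% of the counts of a Y oocyte and 0.802% to 1.45% of an E oocyte. Because such copies resemble their parent genes, their reads may be divided with them. Of the 459 separated genes at least 4-fold higher in E 76 were processed pseudogenes, and of the 277 lower ones 9 were.

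Immune genes, chosen after their values were seen, were a small group with large differences. The immunoglobulin constant gene Ighg2b had 133, 273 and 411 CPM in Y and 3.32, 6.05 and 7.63 CPM in E (ratio −5.45). Ighg1 had 144, 197 and 265 CPM in Y and 14.3, 10.7 and 34.5 CPM in E (−3.30), and Ighg3 had 18.1, 30.4 and 37.7 CPM in Y and 2 counts in E, 159-fold (44.0 to 1318) higher in Y. All 3 were lower in every E oocyte, while Ighm overlapped at 53.4, 87.0 and 127 CPM in Y and 29.3, 80.1 and 69.0 CPM in E. Ighd lay in the other direction (2.28) with 0.510, 0 and 20.8 CPM in E, nearly all in GV9, against 0, 0.696 and 6.39 CPM in Y. The classical MHC class I gene H2-K1 was lower in E, at 15.5, 37.5 and 71.7 CPM in Y and 3.57, 7.71 and 12.8 CPM in E (−2.38). H2-Q7, another class I gene, had no count in Y and 2.81, 10.2 and 3.66 CPM in E, at least 59.5-fold higher. The class II genes split too. H2-Oa had 2.35, 6.11 and 17.6 CPM in Y and 1.28, 1.10 and 1.22 CPM in E (−2.57), while H2-Aa was higher in E (6.12). Of the 4 measured MHC genes, 2 were at least 2-fold higher in E and 2 lower, all of them separated. Class I and immunoglobulin constant genes are near-identical copies and may share reads.

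Besides Tceal8, the genes with no count in Y and the highest level in E were Prss35, a serine protease-like protein (17.9, 10.2 and 32.1 CPM, at least 210.2-fold higher), and Trim21, a cytosolic antibody receptor (12.5, 11.01 and 5.19 CPM, at least 105-fold higher). AI429214, Gm44828 and Otogl followed at 103, 97.2 and 90.2-fold or more. Of other biotypes, Gm44988 had 1 count in Y and 25.3, 19.0 and 27.2 CPM in E, 764-fold (136 to 30309.5) higher. In the other direction ENSMUSG00000118642, which has no symbol in the table used here, had 65.7, 1479.8 and 3248 CPM in Y and 0, 6.33 and 0.611 CPM in E (ratio −9.18, or −11.87 without GV8). Cyp2c53-ps, a cytochrome P450 pseudogene, had 35.5, 70.2 and 118 CPM in Y and 3 counts in E, 256-fold (87.4 to 1242) higher in Y.

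Separated genes at least 4-fold apart lay next to another such gene of the same direction in 11.3% of those higher in E, against 8.07% of other measured genes, and in 12.3% of those lower in E, against 4.73%. The X chromosome, with 373 measured genes, had a median ratio of 0.18.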
